A study of Mus musculus with 6 samples.

Results

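The genes described here are 48 mouse genes that copy DNA or drive cell division, chosen by their gene symbols. They were read in 6 samples of the posterior part of the embryo, cut off just below the forelimb pit at embryonic day 9.5. The samples were 3 Fkbp8 null (6, 9 and 11) and 3 wild type (7, 10 and 12), all from a mixed stock of C57BL/6 and 129S5/SvEvBrd. The source label says anterior, but the tissue label and the dissection say posterior, which was followed. Fkbp8 null embryos lack a membrane-anchored immunophilin, and the study asked what differs around the posterior neuropore, where closure of the tube was not yet complete. An average of 21.6 somite pairs is stated alike for all samples, and the labels do not say whether a sample was a single embryo or name its litter. The p-values therefore measure only the spread between these samples. Of the 48 genes, 47 had at least 1 spot on the array, 53 spots in all of the 34967 spots for mouse transcripts, and Rfc3 had none by this naming. After the filter on dim spots 46 spots for 44 of the genes were tested, among 21243 probes tested, which named 12850 genes. Where several probes of a gene were tested, the probe with the highest mean signal stands for it.

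A cell enters a new cycle when D-type cyclins with Cdk4 release the E2F factors, and cyclin E with Cdk2 then starts S phase. Before that, the origin recognition complex, Cdc6 and Cdt1 load the ring of Mcm proteins, the replicative helicase, onto DNA, and geminin (Gmnn) blocks Cdt1 once an origin has fired. Cyclins A and B with Cdk1 then carry the cell into mitosis, where the kinetochore checkpoint holds back the Cdc20-bound ubiquitin ligase until every chromosome is attached. In the closing neural tube nearly all neuroepithelial cells cycle, and their nuclei copy DNA away from the lumen and divide beside it. The members were grouped as 11 licensing genes, 8 fork and nucleotide genes, 7 genes of the G1/S step, 9 of mitotic entry, 9 of the kinetochore and checkpoint, and 4 of the spindle and chromosomes. The first 2 groups are called replication genes (16 of 19 tested) and the last 3 mitosis genes (21 of 22 tested). All 7 genes of the G1/S step were tested.

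Many promoters of genes of this kind carry motifs that are known to time their transcription. E2F-type motifs are typical of S-phase genes, and the cell cycle genes homology region (CHR) together with CCAAT boxes is typical of mitotic genes. RefSeq for GRCm38.p6 gave 40 promoter windows for 38 members, each of 300 bases (250 before to 50 after the gene's start). The E2F-type words searched were TTTCGCGC, TTTGGCGC and TTTCCCGC, the CHR-type words were TTTGAA and TTCGAA, and CCAAT was searched as such, all on both strands. Windows of replication members held an E2F-type word in 9 of 16 (56.2%), against 1.84% of all 32851 windows and 2.91% of the 12841 windows of other tested genes. Windows of mitosis members held a CHR-type word in 13 of 18 (72.2%), against 19.2% of all windows and 14.7% of those of other tested genes, and each of the 13 also held CCAAT. That word was present in windows of both processes, in 13 of 16 of replication members (81.2%) and 16 of 18 of mitosis members (88.9%), against 37.4% of all windows. CHR-type words lay in 3 of 16 windows of replication members (18.8%) and E2F-type words in 1 of 18 of mitosis members (5.56%), that of Cdk1. The 6 windows of genes of the G1/S step held an E2F-type word once, at Cdk2, and no CHR-type word. Mcm4, Gmnn, Pole, Gins2, Ccne2, Ccnd2, Ccna2, Cdc25c, Aurkb and Kif20a had no entry in the table. A match is only a run of letters, and no binding was measured. Shown here, 5′ to 3′ on the gene's own strand with motif matches in capitals, are the 250 bases before the start of 5 members. Mcm5, Mcm7 and Cdc20 stood out on the array of wild-type sample 12 and Top2a on that of wild-type sample 10, as described further on, and Cdk1 was the mitosis member with an E2F-type word. Matches of different words were counted also where they overlap.
Mcm5: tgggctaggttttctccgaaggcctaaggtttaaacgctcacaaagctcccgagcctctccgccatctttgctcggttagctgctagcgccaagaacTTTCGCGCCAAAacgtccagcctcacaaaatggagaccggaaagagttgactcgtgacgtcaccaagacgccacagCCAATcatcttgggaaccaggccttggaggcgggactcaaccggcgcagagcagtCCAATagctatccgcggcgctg
Mcm7: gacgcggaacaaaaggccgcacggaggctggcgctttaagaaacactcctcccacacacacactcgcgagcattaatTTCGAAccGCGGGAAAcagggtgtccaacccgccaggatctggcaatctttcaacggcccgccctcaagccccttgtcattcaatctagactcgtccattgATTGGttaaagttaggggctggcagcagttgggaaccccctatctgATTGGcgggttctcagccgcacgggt
Cdk1: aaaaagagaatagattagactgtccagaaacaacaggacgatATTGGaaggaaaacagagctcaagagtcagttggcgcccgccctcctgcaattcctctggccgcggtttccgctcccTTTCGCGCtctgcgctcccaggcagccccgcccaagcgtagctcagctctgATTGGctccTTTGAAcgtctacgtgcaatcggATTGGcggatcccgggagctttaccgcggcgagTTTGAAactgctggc
Cdc20: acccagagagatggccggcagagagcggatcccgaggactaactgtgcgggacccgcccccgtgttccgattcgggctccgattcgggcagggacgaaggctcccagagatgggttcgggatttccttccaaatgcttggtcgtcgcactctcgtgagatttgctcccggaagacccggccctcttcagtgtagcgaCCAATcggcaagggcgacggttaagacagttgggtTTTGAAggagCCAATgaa
Top2a: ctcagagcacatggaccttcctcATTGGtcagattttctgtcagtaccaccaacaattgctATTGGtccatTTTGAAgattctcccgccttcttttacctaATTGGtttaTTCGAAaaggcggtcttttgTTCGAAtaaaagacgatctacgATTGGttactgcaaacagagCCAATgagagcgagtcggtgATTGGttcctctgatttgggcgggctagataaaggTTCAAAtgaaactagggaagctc
These lie at chr8:75109259-75109508 (plus strand), chr5:138171884-138172133, chr10:69352913-69353162, chr4:118437344-118437593 and chr11:99024190-99024439 (minus strand for the last 4). The capital run of Mcm5 is a pair of E2F-type matches on opposite strands that overlap. Mcm7 had 2 windows in the table, and the one with more matches is printed. In these 250 bases Cdk1 held 1 E2F-type match, 2 CHR-type matches and 3 CCAAT matches, and Top2a held 4 CHR-type and 6 CCAAT matches.

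Fkbp8, the targeted gene, had background-subtracted intensities of 24.7, 28.9 and 35.7 on the arrays of null samples 6, 9 and 11, against 123, 183 and 486 on those of wild-type samples 7, 10 and 12. The groups did not overlap, and the null arrays were all near background. All other values are on a log2 scale, of the background-subtracted intensity after an offset and quantile normalisation between arrays. The means of Fkbp8 were 6.32 ± 0.10 in null and 8.09 ± 0.53 in wild type (SD, n = 3 each), at least 3.33-fold lower in null, a bound because the null spots were near background, with adjusted p = 0.409 by limma. Between 63.3% and 69.2% of the transcript spots per array lay above background, and the median spot was 2.33 to 3.80 times the negative controls. Wild-type sample 10 stood apart in a spot of the X-inactivation transcript Xist (10.3, against 5.99 to 6.53 on the other arrays). Another Xist spot did not differ there (6.17, against 5.97 to 6.34). The Y-linked Eif2s3y stood apart in that sample too (6.16, against 8.63 to 8.91). In bulk tissue, fewer cells of a kind and less RNA per cell cannot be told apart.

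No replication or mitosis gene passed the test between null and wild type. Of the 44 tested members 0 had an adjusted p under 0.05 by limma, against 0.00778% of all 12850 genes, and 0 had an unadjusted p under 0.05, against 3.21% of all genes. The adjusted p was 0.9999 for every member. The difference was positive for 18 members and negative for 26 (15 to 23 positive under the other normalisations), against 53.5% of all genes with a higher value in null. The median difference, null minus wild type, was -0.02 log2 units over the members and 0.01 over all genes. By process it was -0.02 over the replication genes (7 higher, 9 lower) and -0.01 over the mitosis genes (10 higher, 11 lower), and with median scaling both were positive, at 0.03 and 0.01. Over the genes of the G1/S step it was -0.16 (1 higher, 6 lower). The groups overlapped in every member except E2f1, 1 of 44, against 9.2% of all genes. The 95% limma interval of the difference lay within 0.5 log2 units of 0 for 29 of the 44 (65.9%), against 78.0% of all genes. It lay within 1 log2 unit for 43 of them, all but Mcm7, whose interval ran from -1.12 to 0.90. When each sample was left out in turn, the difference changed sign for 27 of the 44 members and moved by over 1.5 times with its sign kept for 15. E2f1 and Birc5 were the 2 members whose differences kept their sign and stayed within 1.5 times.

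**Figure D1:**
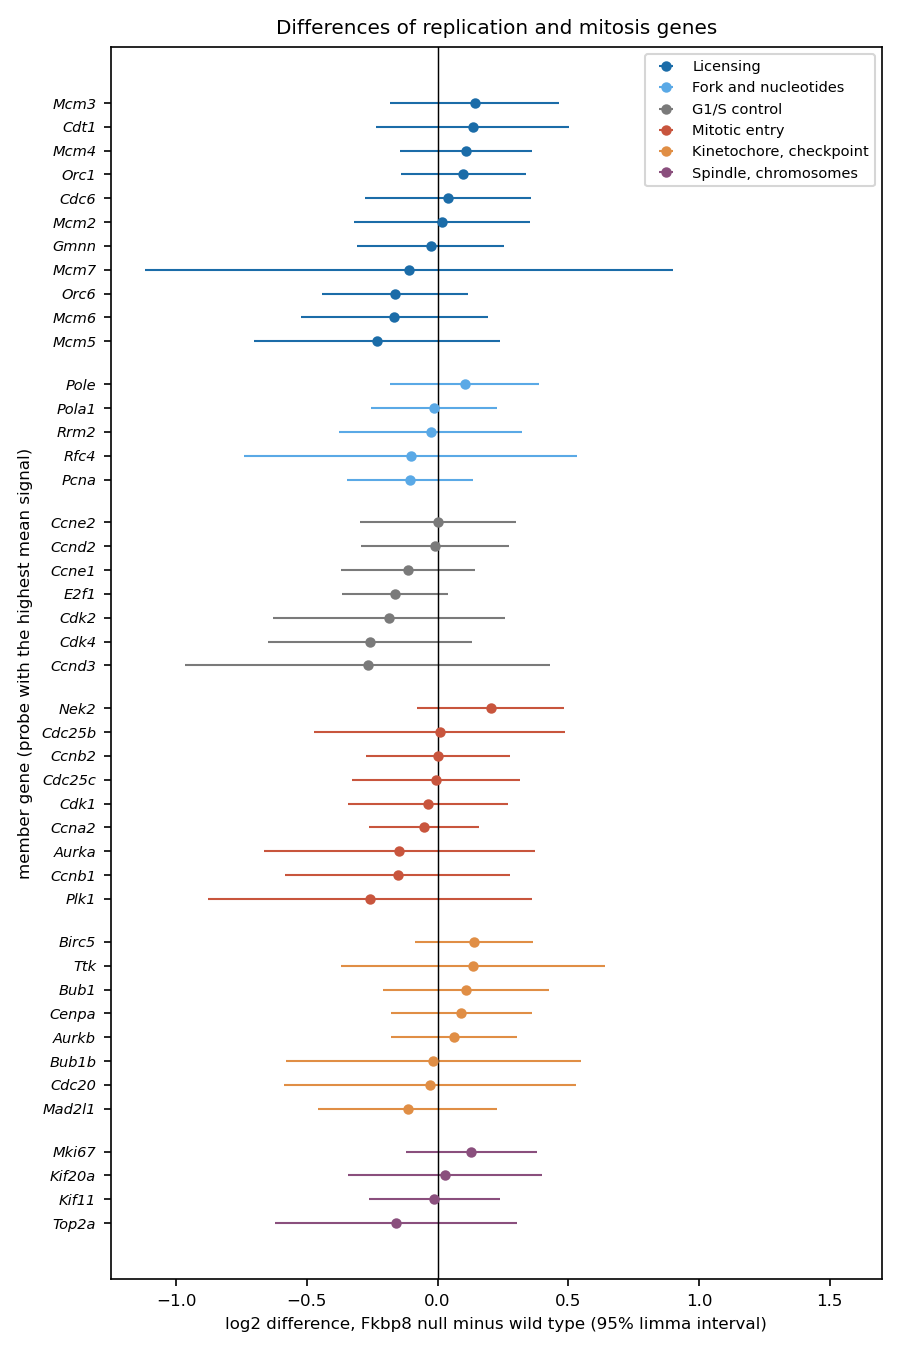
Differences of the 44 tested members, as log2 signal in Fkbp8 null minus wild type (x axis), grouped by role down the page. Points are limma estimates and bars their 95% intervals; every bar crosses 0, and the widest, that of Mcm7, runs from -1.12 to 0.90.

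Among the licensing genes the 3 with the smallest p-values all had lower means in null. Orc6, a subunit of the origin recognition complex, read 11.38, 11.58 and 11.31 in null samples 6, 9 and 11, against 11.49, 11.78 and 11.49 in wild-type samples 7, 10 and 12. The groups overlapped through null sample 9, and the difference was -0.16 ± 0.12 (SE of the limma fit). Mcm5, part of the helicase ring, read 10.76, 10.93 and 10.55 in null, against 10.68, 10.79 and 11.46 in wild type. Here 1 wild-type value, that of sample 12, lay above all the rest, and the other two wild-type values lay within the null range. Its difference was -0.23 ± 0.20. Mcm6 read 9.08, 9.31 and 8.93 in null, against 9.03, 9.25 and 9.55 in wild type, again with sample 12 highest (-0.17 ± 0.16, and -0.028 without that sample). Mcm7 had the widest spread of all members, with 8.82, 9.25 and 8.41 in null and 8.06, 8.73 and 10.01 in wild type. Its lowest and highest values were both from wild-type arrays, 1.94 log2 units apart. The remaining helicase subunits differed by 0.02 (Mcm2), 0.14 (Mcm3) and 0.11 (Mcm4), so the subunits of a single complex had both signs. Mcm3 read 11.83, 12.01 and 11.76 in null, against 12.01, 11.55 and 11.62 in wild type. The loading factors Cdc6 and Cdt1 and the origin subunit Orc1 differed by 0.04, 0.13 and 0.10, and the Cdt1 inhibitor Gmnn by -0.03, all with overlapping groups. The Cdt1 spot of wild-type sample 12 was flagged contaminated and left out, so that value rests on 2 wild-type arrays. Mcm5, Orc6 and Cdt1 lie on chromosome 8, as does Fkbp8.

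The fork and nucleotide genes gave differences close to 0. Pcna, the sliding clamp of the polymerases, read 12.13, 12.14 and 12.33 in null, against 12.35, 12.38 and 12.19 in wild type. Null sample 11 lay with the wild-type values and wild-type sample 12 with the null ones (-0.11 ± 0.11). Pole, the catalytic subunit of polymerase epsilon, read 9.55, 9.92 and 9.85 in null, against 9.58, 9.78 and 9.65 in wild type (0.10 ± 0.12, and 0.029 without null sample 9). Rfc4, of the complex that loads the clamp, read 9.06, 9.69 and 9.86 in null, against 9.33, 10.22 and 9.36 in wild type. Its values ran over 1.16 log2 units within both genotypes together, and the difference was -0.10 ± 0.28. Rrm2, the regulated subunit of ribonucleotide reductase, differed by -0.03, and Pola1, of the polymerase that starts each strand, by -0.01. Gins2 and Rrm1 were not tested because their spots were near background in both groups. Gins2, part of the active helicase, had intensities of 29, 33 and 14 in null samples 6, 9 and 11, against 26, 34 and 25 in wild-type samples 7, 10 and 12. The catalytic subunit Rrm1 had 38, 29 and 21 in null samples 6, 9 and 11, against 19, 32 and 12 in wild type. These spots say nothing of the genes beyond their signal not being well above background.

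Differences of the genes of the G1/S step were negative for 6 of 7, although none passed the test, and with median scaling Ccnd2 and Ccne2 changed sign (0.027 and -0.010). E2f1, a transcription factor of S-phase genes, read 8.86, 8.87 and 8.80 in null, against 9.06, 8.99 and 8.97 in wild type. All null values lay below all wild-type values, with SDs of 0.035 in null and 0.045 in wild type, and the difference of -0.16 ± 0.09 had the smallest unadjusted p of the members by limma (unadjusted p = 0.103, adjusted p = 0.9999). Cdk4, the partner of the D-type cyclins, read 10.74, 11.18 and 11.35 in null, against 11.13, 11.46 and 11.45 in wild type (-0.26 ± 0.17). Null sample 6 was the low value there, and without it the difference was -0.082. Ccne1, cyclin E1, read 9.70, 9.74 and 9.46 in null, against 9.71, 9.67 and 9.85 in wild type (-0.11 ± 0.11, and -0.028 without null sample 11). Ccnd3, cyclin D3, had the most negative difference of this group, -0.27 ± 0.30, and it was again wild-type sample 12 that stood away. It read 8.55, 8.40 and 8.01 in null, against 8.25, 8.16 and 9.36 in wild type. Cdk2 differed by -0.19 ± 0.19, Ccnd2 by -0.01 and Ccne2 by 0.003. For 6 of the 7 genes null sample 11 gave the lowest value of all arrays.

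**Figure D2:**
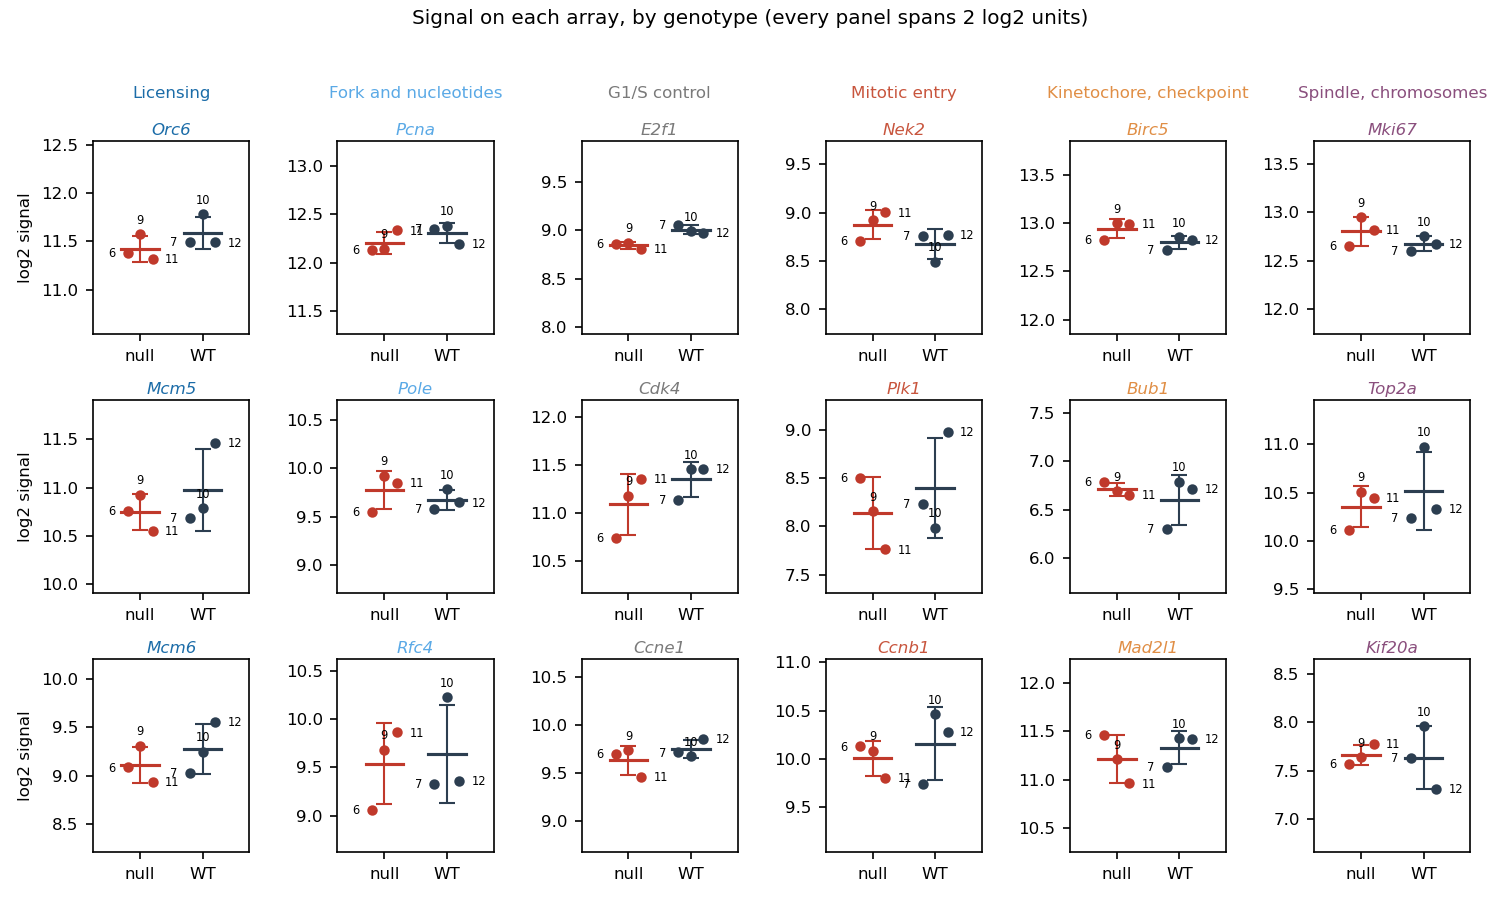
Normalised log2 signal (y axis, 2 log2 units in every panel) of the 3 members of each role with the smallest p-values, for Fkbp8 null and wild-type arrays. Points are arrays with their sample numbers, and bars give the mean and SD of 3. The groups overlap in every panel but E2f1, and sample 12 is the high point of Mcm5, Mcm6, Ccne1 and Plk1.

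Genes of mitotic entry had differences of both signs, 3 positive and 6 negative. Nek2, a kinase that separates the centrosomes, read 8.71, 8.92 and 9.00 in null, against 8.76, 8.49 and 8.77 in wild type. Null samples 9 and 11 were above and null sample 6 within the wild-type range (0.20 ± 0.12). Plk1, polo-like kinase, read 8.50, 8.16 and 7.76 in null, against 8.23, 7.99 and 8.98 in wild type. The ranges overlapped, with the lowest value in null sample 11 and the highest in wild-type sample 12, and the difference was -0.26 ± 0.27. Ccnb1, cyclin B1, read 10.13, 10.08 and 9.80 in null, against 9.74, 10.46 and 10.28 in wild type (-0.15 ± 0.19). Wild-type sample 7 gave its lowest value, so leaving out that sample had to make its difference more negative. As a description, the difference was then -0.37 (unadjusted p = 0.035, adjusted p = 0.999 by limma). Ccna2 and Ccnb2, cyclins A2 and B2, differed by -0.05 and 0.003. Their kinase Cdk1 read 12.52 and 12.66 in null samples 6 and 9, with the spot of sample 11 left out as contaminated, against 12.50, 12.80 and 12.59 in wild type. Aurka, the centrosomal Aurora kinase, had 2 tested probes, with differences of -0.15 and -0.24. The dimmer of them read 7.90, 8.01 and 7.95 in null, against 8.45, 7.77 and 8.37 in wild type, with sample 10 alone below the null values. Leaving out that sample therefore had to make its difference more negative. As a description, it was then -0.46 (unadjusted p = 0.00284, adjusted p = 0.785 by limma). For the brighter probe of Aurka the difference without sample 10 was -0.29 (unadjusted p = 0.247 by limma). The Cdk1-activating phosphatases Cdc25b and Cdc25c differed by 0.01 and -0.01.

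Kinetochore and checkpoint genes had the highest median of the roles, 0.08, with 5 of 8 higher in null, and none passed the test. Birc5 (survivin), a subunit of the chromosomal passenger complex, read 12.82, 13.00 and 12.99 in null, against 12.72, 12.85 and 12.82 in wild type. Null sample 6 lay within the wild-type range (0.14 ± 0.10). Its kinase partner Aurkb differed by 0.06 ± 0.10. Bub1, a checkpoint kinase, read 6.79, 6.69 and 6.66 in null, against 6.30, 6.79 and 6.71 in wild type (0.11 ± 0.14). It passed the filter only through the null group, with 3 null and 2 wild-type arrays above background. The median of 0.08 and the 5 higher genes include it. Mad2l1, which holds Cdc20 inactive, read 11.47, 11.22 and 10.96 in null, against 11.13, 11.43 and 11.42 in wild type (-0.11 ± 0.15). The checkpoint kinases Ttk and Bub1b differed by 0.13 and -0.02, the centromeric histone Cenpa by 0.09 and Cdc20 by -0.03. Cenpe, a kinetochore motor, was not tested. Its intensities were 25, 45 and 26 in null, against 29, 18 and 32 in wild type, and it was above background only on the array of null sample 9.

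The spindle and chromosome genes include the common proliferation marker Mki67, a coat protein of mitotic chromosomes. It read 12.65, 12.95 and 12.82 in null, against 12.61, 12.76 and 12.67 in wild type, and null sample 6 lay within the wild-type range (0.13 ± 0.11). Its 95% interval ran from -0.12 to 0.38, and without null sample 9 the difference was 0.058. Top2a, the enzyme that untangles sister chromatids, read 10.11, 10.51 and 10.45 in null, against 10.24, 10.98 and 10.33 in wild type, with sample 10 highest (-0.16 ± 0.20). Kif20a, a motor of cytokinesis, read 7.57, 7.64 and 7.78 in null, against 7.63, 7.96 and 7.31 in wild type (0.03 ± 0.16). Kif11, the motor that pushes the spindle poles apart, had 2 tested probes of opposite sign, -0.01 for the probe with more signal and 0.13 for the other. Additional probes of Cdc6, Ccnd3, Bub1 and Top2a were near background and were not tested.

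Among genes of the same processes outside the 48, 3 of 90 tested had an unadjusted p under 0.05 by limma, against 3.21% of all genes, and none an adjusted one. Of 36 other replication genes 32 were tested, 18 higher and 14 lower in null, with a median of 0.02, and 1 had an unadjusted p under 0.05. This was Orc5 of the origin complex, at 0.30 ± 0.12 (unadjusted p = 0.0346 by limma), which rests on 2 wild-type arrays. Of 37 other mitosis genes 31 were tested, 20 higher and 11 lower, with a median of 0.02. The spindle assembly factor Tpx2, which brings Aurka to the spindle, read 11.11, 11.24 and 11.12 in null, against 10.87, 10.95 and 10.64 in wild type. Its groups did not overlap (0.34 ± 0.11, unadjusted p = 0.0168). Of 24 regulators of the cycle 22 were tested, 12 higher and 10 lower. E2f4, a repressing E2F factor, read 9.69, 9.44 and 9.65 in null, against 9.91, 9.77 and 9.99 in wild type, without overlap (-0.30 ± 0.11, unadjusted p = 0.0284). Of 7 inhibitors of cyclin-dependent kinases 5 were tested, 4 higher and 1 lower, with a median of 0.12. Cdkn1a (p21) read 7.77, 8.06 and 8.04 in null, against 8.06, 7.65 and 7.61 in wild type (0.18 ± 0.15). Next by p-value in these lists were Lig1 (-0.23), Rfc1 (0.15), Kif22 (0.22), Racgap1 (0.17), E2f6 (0.36), Cdk6 (0.24), Cdkn2d (0.12) and Cdkn1c (0.15). The adjusted p of every gene of these lists was 0.9999 by limma.

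The arrays of wild-type samples 12 and 10 held the members' largest upward departures from their own means. Among the 42 members measured on all 6 arrays, 7 (16.7%) lay at least 0.5 log2 units above their own mean on the array of wild-type sample 12, against 2.28% of all named genes. Among genes of the same processes outside the 48, the counts on that array were 1 of 31 other replication genes (3.23%) and 0 of 30 other mitosis genes, whose mean deviation there was -0.04. The 7 members were Mcm7 (1.13), Ccnd3 (0.91), Plk1 (0.71), Aurka (0.63), Mcm5 (0.60), Bub1b (0.58) and Cdc20 (0.57), from replication, the G1/S step and mitosis alike. The other tested probe of Aurka was 0.30 above its mean there. Ttk moved the other way on that array, 0.58 below its mean, with 8.91, 9.18 and 9.05 in null, against 8.97, 9.36 and 8.39 in wild type. On the array of wild-type sample 10, Rfc4 (0.64) and Top2a (0.54) were that far above their means, 2 members (4.76%) against 1.80% of all named genes. No member was that far above its mean on any other array. As far below their means were Mcm7 in wild-type sample 7 (-0.81), Rfc4 in null sample 6 (-0.53) and Plk1 in null sample 11 (-0.51). These 7 were picked for high values on the array of wild-type sample 12, so leaving it out had to raise their differences, null minus wild type. Without it they were, as a description, Mcm7 0.42, Ccnd3 0.12, Plk1 0.03, Aurka 0.13, Mcm5 0.01, Bub1b 0.26 and Cdc20 0.25. That of Ttk, picked for a low value there, was -0.12.

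**Figure D3:**
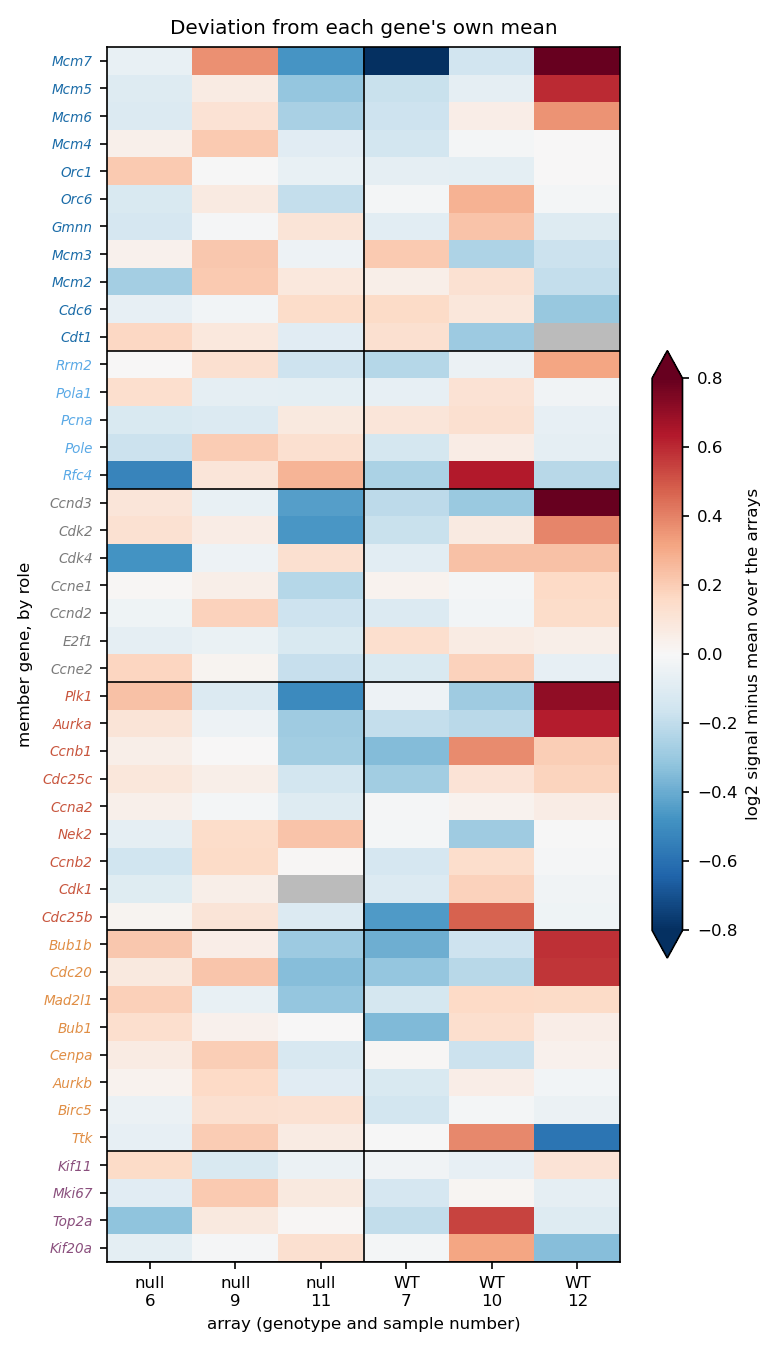
Deviation of each of the 44 tested members (rows, grouped by role) from its own mean over the arrays, in log2 units, on each array (columns, null left of wild type). Red is above and blue below the mean, and grey marks a spot left out as contaminated; the strongest red cells lie in the column of wild-type sample 12, with Mcm7 at 1.13.

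The same 3 arrays held most of the highest values of replication and of mitosis genes. Of the 42 members 13 (31.0%) had their highest value in wild-type sample 12, 12 (28.6%) in wild-type sample 10 and 10 (23.8%) in null sample 9. Over all named genes the shares were 21.5%, 19.0% and 15.7%. The lowest value fell in null sample 11 for 15 members (35.7%, against 14.9% of all named genes) and in wild-type sample 7 for 11 (26.2%, against 20.4%). Outside the 48, the highest value was in wild-type sample 12 for 6 of 31 other replication genes (19.4%) and 5 of 30 other mitosis genes (16.7%), and the lowest in null sample 11 for 3 of each (9.68% and 10%). On wild-type samples 10 and 7 the other mitosis genes had 30% of their highest and 30% of their lowest values. By process, the lowest value was most often in null sample 6 for replication genes (5 of 15) and in wild-type sample 7 for mitosis genes (8 of 20). Each genotype thus held an array where members tended to be high and an array where they tended to be low. The mean deviation of the 20 mitosis genes was 0.03, 0.07 and -0.10 in null samples 6, 9 and 11, against -0.16, 0.06 and 0.10 in wild-type samples 7, 10 and 12. That of the 15 replication genes was -0.08, 0.10 and -0.06 in null, against -0.11, 0.07 and 0.08 in wild type. The median SD of the members was 0.15 in null and 0.19 in wild type, and that of all genes 0.12 in null and 0.15 in wild type. The SD was larger in wild type for 25 of 44 members (56.8%), against 60.3% of all genes.

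**Figure D4:**
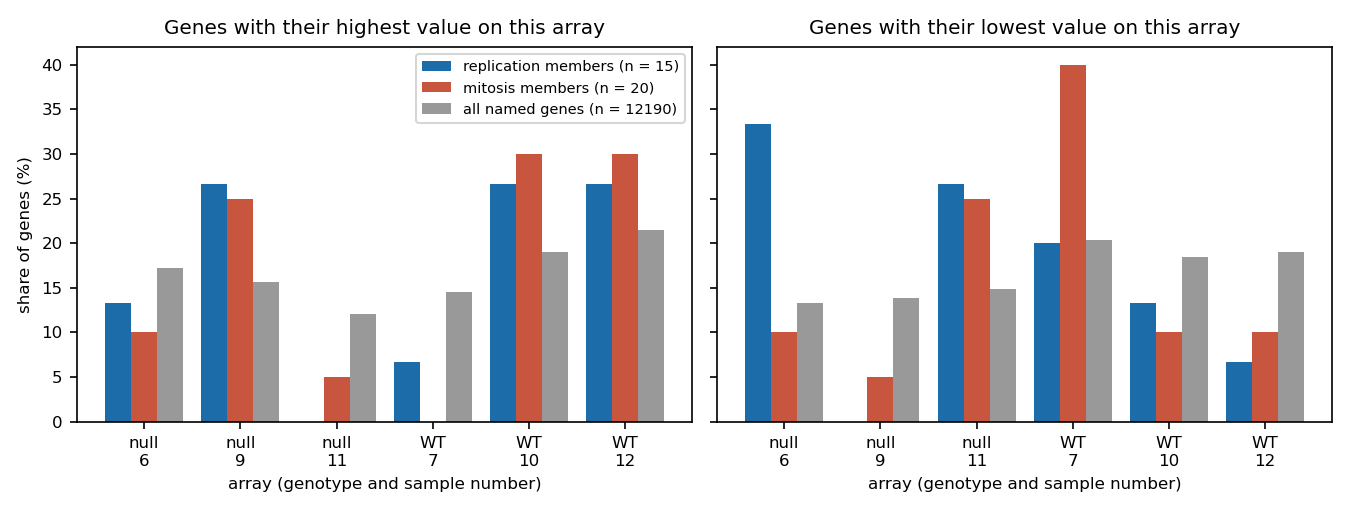
Share of genes (y axis, percent) whose highest value (left panel) or lowest value (right panel) fell on each array, for 15 replication genes, 20 mitosis genes and all 12190 named genes measured on every array. Wild-type samples 10 and 12 and null sample 9 hold most of the highest values, and wild-type sample 7 holds the lowest value of 40% of the mitosis genes.

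Correlation between members over the arrays was weak on the whole. The points of each correlation are the 6 arrays, which differ in genotype, signal strength and tissue markers, so the values are a description. The median Pearson r was 0.27 over the 190 pairs of mitosis genes, 0.05 over the 105 pairs of replication genes and 0.17 over the 300 pairs of a replication with a mitosis gene. Over the 21 pairs of genes of the G1/S step it was also 0.27. Over all 861 pairs of members it was 0.16, against 0.01 over the pairs of all 12190 named genes, and r was above 0.8 for 9.41% of member pairs and 3.68% of all pairs. Outside the members, the median was 0.16 over 435 pairs of other mitosis genes and 0.02 over 465 pairs of other replication genes. There r was above 0.8 for 5.98% and 5.59% of pairs, against 10% of mitosis and 6.67% of replication member pairs. With the genotype means subtracted the medians were 0.27 for mitosis genes, 0.03 for replication genes and 0.20 for all members. For other mitosis genes the median was then 0.16, and for other replication genes 0.05, above that of the replication members. Leaving out 1 array at a time, the median over mitosis genes was lowest, 0.14, without wild-type sample 7 and highest, 0.33, when sample 12 was left out. That over replication genes ran from -0.05 without null sample 9 to 0.22 without wild-type sample 12, so it had no steady sign. That over all members ran from 0.13 to 0.25, with the same arrays left out as for mitosis genes.

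The closest pairs included genes of different roles and of the same role. Ccnd3 and Aurka had r = 0.997, Mcm7 and Rrm2 0.995, Gmnn and Rfc4 0.975, and Rrm2 and Cdc20 0.972. Within a role, Plk1 and Aurka had r = 0.955, Bub1b and Cdc20 0.952, and Mcm5 and Mcm6 0.951. With the other tested probe of Aurka, its r was 0.50 with Ccnd3 and 0.54 with Plk1. Rrm2 read 11.73, 11.85 and 11.56 in null, against 11.50, 11.68 and 12.04 in wild type, the same order of arrays as Mcm7 over a smaller range. Cdc20 read 10.23, 10.38 and 9.81 in null, against 9.85, 9.93 and 10.73 in wild type. The most opposed pairs were Mcm2 with Kif11 (r = -0.999) and Cdc6 with Bub1b (r = -0.989). With the other tested probe of Kif11, annotated to the same transcript, Mcm2 and Kif11 had r = 0.669, and the 2 Kif11 probes had r = -0.663 with each other. Bub1b read 8.03, 7.87 and 7.53 in null, against 7.42, 7.65 and 8.40 in wild type. Subunits of the Mcm ring differed among themselves, with Mcm5, Mcm6 and Mcm7 high in wild-type sample 12 and Mcm2 and Mcm3 below their means there (-0.19 and -0.17). These pairs are the extremes of 861, each over 6 points.

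Markers of other tissues and the strength of the arrays also varied between the samples, not always in step with the members. Their part in the pattern of the members was not tested. By genotype, all 8 tested neuronal markers and 7 of 8 somite markers were higher in null, with medians of 0.23 and 0.31. All 7 tested surface ectoderm markers were lower, with a median of -0.32. The remaining marker lists had both signs, and no marker had an adjusted p under 0.05 by limma. A marker could pass the filter through its higher group alone. The array of wild-type sample 12 had the highest share of spots above background (69.2%) and the highest ratio of the median spot to the negative controls (3.80). Null sample 9 was next, at 68.5% and 3.45. Null sample 11, where members were often lowest, had 66.8% and 3.16. Those values lay above the 66.4% and 2.58 of wild-type sample 10, where members were often highest. All 9 tail bud and presomitic markers were above background in at least 1 group, not necessarily on every array. Their mean deviation was 0.18, -0.25 and 0.25 in null samples 6, 9 and 11, against 0.62, -0.91 and 0.12 in wild-type samples 7, 10 and 12. Primitive erythroid markers (6 of 7 measured) ran from -0.64 to 0.38 in null and from -0.66 to 0.77 in wild type, with sample 10 the highest. The 8 somite markers were between 0.003 and 0.35 in null and between -0.57 and 0.26 in wild type, where sample 12 was highest and sample 10 lowest. Gut endoderm markers (5 of 6 measured) had 0.185, -0.128 and -0.086 in null samples 6, 9 and 11. In wild-type samples 7, 10 and 12 they had 0.187, -0.223 and 0.065. Surface ectoderm markers (6 of 8 measured on all arrays) reached 0.30 in wild-type sample 12, against -0.20 to 0.001 in null. That mean came mostly from Krt8 (1.44). The others there were Epcam 0.32, Cdh1 0.24, Cldn4 0.02, Grhl3 -0.07 and Trp63 -0.15. Markers of neural progenitors, which are the cycling cells of the tube, ran from -0.06 to 0.04 in null and from -0.19 to 0.19 in wild type. Those of postmitotic neurons (6 of 9 measured on all arrays) ran from -0.01 to 0.30 in null and from -0.35 to 0.22 in wild type. All 9 neural progenitor markers and 8 of 9 neuronal markers were above background in at least 1 group. Whether they tell anterior from posterior tissue was not tested, so they do not decide between the source and tissue labels.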

How the data were processed

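Total RNA of 6 samples of the posterior embryo was amplified, labelled with biotin and read on CodeLink whole-genome arrays in 1 colour, per the labels' protocols. Spots were quantified with CodeLink Expression Analysis 4.1, per the file headers, giving raw and normalized intensity and a quality flag. The deposited raw intensity already had local background subtracted, since some spots were below 0. The authors' deposited value table holds a linear signal that equals the scanner's normalized intensity times a factor of 1.013 to 1.018 per array, with column medians of 1.009, 1.003 and 1.004 in null samples 6, 9 and 11, against 1.008, 1.009 and 1.006 in wild-type samples 7, 10 and 12. It served only as an alternative. No genome build is given in the sources used here for the arrays.

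Raw intensities were floored at 0 and raised by 50, and their log2 was quantile normalized over the transcript spots. Between 391 and 543 spots per array with an irregular, contaminated or defective flag were then removed. A probe was tested if above background on all arrays of a group with at least 2 usable values per group. Differences, null minus wild type, come from limma 3.58.1 (lmFit, eBayes) under R 4.3.3. Its two-sided p-values were adjusted by Benjamini-Hochberg over 21243 probes, with a threshold of 0.05. The fit was also run on simulated data, from which no conclusion on the members is drawn. The offset compresses differences of dim probes. Array number, 3 per genotype, limits the precision.

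Names came from the platform's symbols, updated by Entrez number to RefSeq GRCm38.p6 (21487 of 21615 spots with 1 symbol), or by accession for 499 spots, Ccnb1 among them. Spots with several symbols (681) and others, 12853 in all, stayed unnamed. Members and lists were chosen with earlier results of these data known. Values per sample were given for the 3 members of each role with the smallest p, and other members shown per sample were chosen after their values were seen, as were the 5 printed promoters. In each list of other cell-cycle genes the 3 with the smallest p were named. Alternatives covered the offset, normalization, source of the values, flags, filter, variance model, probe choice and each sample left out. Correlations with the other probe of Aurka and Kif11 were added after seeing the data.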

Additional observations from a re-analysis of the deposited data

How the results depend on the processing

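No paired analysis was possible because no sample number occurs in both genotypes. Member probes with an adjusted p under 0.05 numbered 0 in all 16 other fits. At an unadjusted p under 0.05 there was 1 with no filter on dim probes (a near-background probe of Top2a), and 0 to 1 with a sample left out. Over all probes, 1 passed the adjusted threshold; 0 passed with values floored at 1, cyclic loess, the scanner's normalized intensity, the authors' table or the filter on all arrays, 2 with all flags kept, and 0 to 1 with a sample left out. Positive members numbered 13 to 24 with a sample left out, where the median of replication genes ran from -0.08 to 0.05 and that of mitosis genes from -0.07 to 0.07. The number of members far above their mean in wild-type sample 12 was 7 to 9 over the alternatives. Leaving out a sample, chosen after seeing the data for correlations, moved the median r from -0.047 to 0.22 (replication), 0.14 to 0.33 (mitosis) and 0.13 to 0.25 (all members).

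Of 57 named genes 29 kept their sign throughout, and 80 of 961 recomputed differences changed sign, all of genes without a call; beyond what fewer samples or other probes bring, the cause was not tested. Median scaling gave Gmnn 0.028, Rrm2 0.033, Ccne2 -0.010, Ccnd2 0.027, Ccna2 0.0030, Cdc25b -0.013, Cdc20 0.028 and Kif11 0.013. The scanner's values gave Gmnn 0.033, Rrm2 0.032, Ccne2 -0.0041, Ccnd2 0.025, Ccna2 0.0014, Cdc20 0.031 and Kif11 0.018. The authors' table gave Gmnn 0.031, Rrm2 0.029, Ccne2 -0.0064, Ccnd2 0.023, Cdc20 0.029 and Kif11 0.016. Cyclic loess gave Ccne2 -0.018, Ccnb2 -0.025 and Cdc25b -0.018. The floor of 1 gave Cdc25c 0.00070. Keeping all flags gave Cdk1 0.035. The mean of probes gave Kif11 0.061. With a sample left out the signs varied for Rfc4 (-0.27 to 0.19), Gmnn (-0.086 to 0.082), Ccne2 (-0.084 to 0.097), Ccnd2 (-0.11 to 0.069), Bub1 (-0.040 to 0.21), Ccnb2 (-0.077 to 0.084), Cdc25b (-0.22 to 0.25), Mcm2 (-0.083 to 0.16), Pola1 (-0.087 to 0.039), Aurkb (-0.0018 to 0.12), Kif11 (-0.091 to 0.046), Top2a (-0.30 to 0.074), Cdk1 (-0.10 to 0.045), Cdc25c (-0.15 to 0.078), Mad2l1 (-0.24 to 0.010), Kif20a (-0.13 to 0.19), Mcm7 (-0.55 to 0.42), Cdc6 (-0.10 to 0.13), Rrm2 (-0.15 to 0.13), Cdk2 (-0.33 to 0.00097), Bub1b (-0.22 to 0.26), Cdc20 (-0.19 to 0.25), Mcm5 (-0.38 to 0.012), Plk1 (-0.47 to 0.034), Ccnd3 (-0.48 to 0.12), Aurka (-0.29 to 0.13) and Ttk (-0.12 to 0.36).

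Signal near background limits Bub1, Gins2, Rrm1 and Cenpe, for which a level below the near-background flag has no order.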
